A study of Mus musculus with 8 samples.

Results

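The genes of mouse chromosome 6 were described by their position along the chromosome in RNA-seq libraries of tcESCs, tc;Sf1ESCs, SCLCs and todPGCLCs. Members were all genes that GENCODE M21 places on chromosome 6 of the GRCm38 build and that had a mean count above 10 over the 8 libraries, a filter that 778 passed of the 2295 chromosome 6 genes in the files and of the 16707 genes of the genome that passed the same limit. Members and windows were selected on the ratio of tcESCs to each of the other 3 groups, so all values from those 3 comparisons are a description, and no p-value is given for them. Of the members, 670 were protein-coding, 36 were processed pseudogenes, 21 antisense transcripts and 20 lincRNAs. Just inside the limit were Nat8f1 with a mean count of 10.1 and Clec12a and Opn1sw with 10.2, and just outside it were Evx1os, 1700124L16Rik and Ssu2 with 9.75 each. Several large chromosome 6 families were almost wholly below it, with 0 of 33 taste receptor (Tas2r) genes, 0 of 29 olfactory receptor genes, 3 of 71 vomeronasal receptor genes, 2 of 160 immunoglobulin kappa variable genes and 2 of 30 killer cell lectin receptor (Klr) genes among the members. All 18 zinc finger (Zfp) genes of the chromosome were members.

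Each group had 2 libraries. The tcESCs (genotype XY;tesco-cfp) are an ES cell line of the C57BL/6 strain from male embryos that carry a cyan fluorescent reporter driven by the testis enhancer of Sox9. The tc;Sf1ESCs (XY;tesco-cfp;Sf1) are 1 G418-selected clone of that line with a transgene for Sf1, the product of Nr5a1 and a nuclear receptor needed for gonad and adrenal development. The SCLCs, called Sertoli cell-like cells in the study and labelled as testicular somatic cells, have the same genotype. They were sorted as CFP-positive cells after 12 days of tc;Sf1ESC differentiation. In the study this induction starts with CHIR99021 and TTNPB, an agonist of the retinoic acid receptor, and goes on with CHIR99021, BMP7 and FGF9. The todPGCLCs, or primordial germ cell-like cells, came from another XY line, also C57BL/6 but with Prdm1-gfp, and were sorted on day 6 from testicular organoids as GFP-positive cells that also carried a surface marker, named as CD49f in one place of the study and as SSEA1 in another. In those organoids epiblast-like cells had been cultured with tc;Sf1 testicular cells. So 3 of the groups share the tesco-cfp parent and only SCLCs and tc;Sf1ESCs share the transgene clone, and the labels do not say whether the replicates were separate cultures, although the study describes its experiments in general as biologically replicated. Every p-value measures the spread between these libraries, which may be technical.

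An expression level from bulk RNA counts the transcripts of all copies of a gene in all cells of the sample. Neighbouring genes on a chromosome usually have unrelated functions, and their levels follow their own promoters and enhancers, while genes of a cluster can share enhancers or, in an imprinted domain, an imprinting control region that silences the allele of 1 parent. The level of genes along a whole chromosome or a stretch of it can also shift together when the number of copies changes, and mouse ES cell lines are known to gain and lose chromosomes in culture. DNA was not analysed here, and no copy number was measured. Chromosome 6 holds the Hoxa cluster, the pluripotency genes Nanog, Dppa3 and Gdf3, the imprinted genes around Peg10 and Mest, the kinase genes Braf and Met, and the glycolytic genes Gapdh and Tpi1.

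RefSeq promoters (GRCm38.p6, from 250 bases before to 50 bases after the transcription start) matched 589 of the 778 members by symbol. Those of 4 members that rose in SCLCs and todPGCLCs over tc;Sf1ESCs, with levels given below, are shown. The first is that of Stra8, the retinoic acid-induced gene needed for entry into meiosis, on the plus strand at chr6:34920698-34920997. Its capitals mark the NR5A half-site AAGGTCA, the letters bound by Sf1 and its relatives, searched on both strands.

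Stra8: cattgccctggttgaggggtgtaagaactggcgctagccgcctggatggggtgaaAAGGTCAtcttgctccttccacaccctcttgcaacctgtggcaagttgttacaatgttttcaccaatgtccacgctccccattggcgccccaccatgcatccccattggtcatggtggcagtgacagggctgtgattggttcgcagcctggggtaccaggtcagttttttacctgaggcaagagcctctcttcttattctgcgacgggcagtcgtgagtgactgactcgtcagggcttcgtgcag

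The half-site was found once in it, and 4.72% of all 32851 promoters in the table and 2.94% of the 783 promoters of members held it. It was not found in the promoters of Herc6, Samd9l and Parp12, shown next, or in those of Thsd7a, Aass and Asprv1. The other promoters belong to 3 genes known to be induced by interferon, Herc6 at chr6:57580742-57581041 on the plus strand, Samd9l at chr6:3399522-3399821 on the minus strand and Parp12 at chr6:39118300-39118599 on the minus strand. Capitals mark each CG dinucleotide, of which the promoters held 4, 1 and 46, against a median of 7 over all promoters and 17 over those of members.

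Herc6: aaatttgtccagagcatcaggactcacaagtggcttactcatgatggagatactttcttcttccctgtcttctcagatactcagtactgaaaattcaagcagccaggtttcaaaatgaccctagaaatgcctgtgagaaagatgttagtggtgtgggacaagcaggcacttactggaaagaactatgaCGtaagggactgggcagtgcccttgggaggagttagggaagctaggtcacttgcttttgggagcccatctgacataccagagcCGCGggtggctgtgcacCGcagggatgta
Samd9l: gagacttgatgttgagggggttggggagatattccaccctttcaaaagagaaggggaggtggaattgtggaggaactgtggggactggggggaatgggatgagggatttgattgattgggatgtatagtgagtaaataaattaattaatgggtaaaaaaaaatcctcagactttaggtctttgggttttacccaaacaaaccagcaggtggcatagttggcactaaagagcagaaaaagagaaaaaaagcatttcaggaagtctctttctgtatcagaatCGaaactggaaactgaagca
Parp12: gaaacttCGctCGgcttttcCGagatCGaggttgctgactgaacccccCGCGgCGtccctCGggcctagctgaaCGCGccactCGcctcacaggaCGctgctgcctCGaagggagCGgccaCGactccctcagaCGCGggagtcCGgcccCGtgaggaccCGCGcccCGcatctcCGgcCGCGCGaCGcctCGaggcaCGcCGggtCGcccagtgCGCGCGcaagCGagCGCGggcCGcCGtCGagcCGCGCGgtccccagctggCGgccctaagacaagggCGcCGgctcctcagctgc

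The letters of the interferon-stimulated response element, GAAANNGAAA, were not found on either strand of these 3 windows, and 3.44% of all promoters held them. A match of either motif is a description of the letters only.

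The libraries held 25411033 to 30680191 counts on genes, so that a floor of 3 counts corresponded to 0.0978 to 0.118 CPM (counts scaled to the library total). Nr5a1, which the transgene encodes, had 1 and 0 counts in tcESCs, 52 and 30 in tc;Sf1ESCs, 341 and 535 in SCLCs and 6 and 5 in todPGCLCs. The 7 Sertoli markers summed to 439 to 457 CPM in SCLCs against 3.35 to 23.6 CPM elsewhere, but not every member followed the sum. Amh (10 and 22 counts) and Dhh (5 and 1 counts) stayed as low in SCLCs as in the other groups. Sox9, whose enhancer drives the reporter, had 7.77 and 4.47 CPM in SCLCs and 2.47 and 4.97 CPM in todPGCLCs, so these groups overlapped. In both libraries, 6 of the 7 markers were above 3 counts in SCLCs and all 7 in todPGCLCs. SCLCs and todPGCLCs each had all 8 markers of primitive and visceral endoderm and all 6 trophectoderm markers above 3 counts in both libraries. The endoderm sums were 804 to 1165 CPM in SCLCs, 4.91 to 6.06 CPM in the 2 ESC groups and 23.7 to 32.6 CPM in todPGCLCs. The trophectoderm sums were 402 to 524 CPM in SCLCs, 13.8 to 39.1 CPM in the ESC groups and 108 to 113 CPM in todPGCLCs. The 7 germ cell markers summed to 870 to 892 CPM in todPGCLCs and 397 to 511 CPM in the other 6 libraries, but not every member followed the sum. Dazl had 194 and 105 CPM in todPGCLCs and 171 and 192 CPM in tcESCs, so these groups overlapped. Ddx4 had 32.1 and 29.8 CPM in todPGCLCs and nearly as much in SCLCs, at 29.1 and 24.0 CPM. Uty, Kdm5d, Ddx3y and Eif2s3y, all on the Y chromosome, summed to 34.0 and 34.2 CPM in tcESCs, 163 and 169 CPM in tc;Sf1ESCs, 88.3 and 117 CPM in SCLCs, and only 3.84 and 4.36 CPM in todPGCLCs, although all 4 groups are labelled XY. In bulk samples fewer cells of a type and less RNA per cell cannot be told apart, which holds for these sums and for every level below.

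The median gene of chromosome 6 stood higher in tcESCs than in each of the other 3 groups. Set against its mean over the 8 libraries and the all-gene median of each library, the median chromosome 6 gene was at a log2 level of 0.24 in tcESC replicate 1 and 0.25 in replicate 2. It was at -0.073 and -0.070 in tc;Sf1ESCs, -0.098 and -0.13 in SCLCs, and -0.098 and -0.10 in todPGCLCs. The tcESC libraries thus lay above all 6 others, which lay close to each other. Chromosome 6 genes also took 5.79% and 5.88% of the counts in tcESCs, against 4.58% in both tc;Sf1ESC libraries, 4.32% and 4.36% in SCLCs and 4.80% and 4.89% in todPGCLCs.

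As a log2 ratio of mean CPM with a pseudocount of 0.1 CPM, less the median of all genes, the chromosome 6 median was 0.31 for tcESCs against tc;Sf1ESCs (SD 0.0087 over the 4 pairs of libraries), which is 1.24-fold. Against SCLCs it was 0.35 (SD 0.028, 1.28-fold) and against todPGCLCs 0.32 (SD 0.016, 1.25-fold). The 4 pairs of libraries ranged from 0.30 to 0.32, from 0.31 to 0.38 and from 0.31 to 0.35. The pairs of a comparison reuse the same libraries, so each SD is not that of 4 independent values. The medians are of group means and the pairs are of single libraries, so a median can lie outside its pairs. The 3 comparisons share the tcESC libraries and are not independent of each other. Their all-gene medians before centring were 0.010, 0.011 and -0.10, so only the ratios to todPGCLCs were moved by more than 0.1. Between the 3 other groups the median of the same genes lay near 0, at 0.030 for SCLCs against tc;Sf1ESCs (pairs 0.0056 to 0.039), -0.028 for todPGCLCs against tc;Sf1ESCs (pairs -0.052 to -0.041) and -0.043 for todPGCLCs against SCLCs (pairs -0.054 to 0.0085). With every gene of at least 1 count included, the tcESC medians were 0.19, 0 and 0.047.

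The share of members above the all-gene median was 72.5%, 59.3% and 65.4% against tc;Sf1ESCs, SCLCs and todPGCLCs, where the all-gene share is even by construction. The interquartile range of the members ran from -0.023 to 0.58 against tc;Sf1ESCs, and that of all genes ran from -0.31 to 0.30. Against SCLCs it was far wider, from -0.57 to 1.15, and against todPGCLCs from -0.38 to 0.84. Both tcESC libraries were above both tc;Sf1ESC libraries for 509 members (65.4%, against 40.9% of all genes) and below them for 135 (17.4%, against 35.9%). Against SCLCs they were above for 412 members (53.0%, against 42.6% of all genes) and below for 260 (33.4%, against 42.5%), and against todPGCLCs above for 454 (58.4%, against 41.9%) and below for 221 (28.4%, against 42.0%). These shares restate the ratios the members were chosen by.

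Other chromosomes were shifted too, but in other patterns. Among the other 18 autosomes the median lay within 0.2 of 0 for 16, 16 and 17 in the comparisons with tc;Sf1ESCs, SCLCs and todPGCLCs. Chromosome 16 was higher in tcESCs than in tc;Sf1ESCs and SCLCs (0.44 and 0.52) and level with todPGCLCs (0.0061). Chromosome 8 was lower in tcESCs than in tc;Sf1ESCs and SCLCs (-0.46 and -0.51) and at 0.069 against todPGCLCs, and chromosome 11 stood apart only against todPGCLCs (-0.48). Chromosome 6 was the only autosome whose median was more than 0.2 from 0 in all 3 comparisons.

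**Figure D1:**
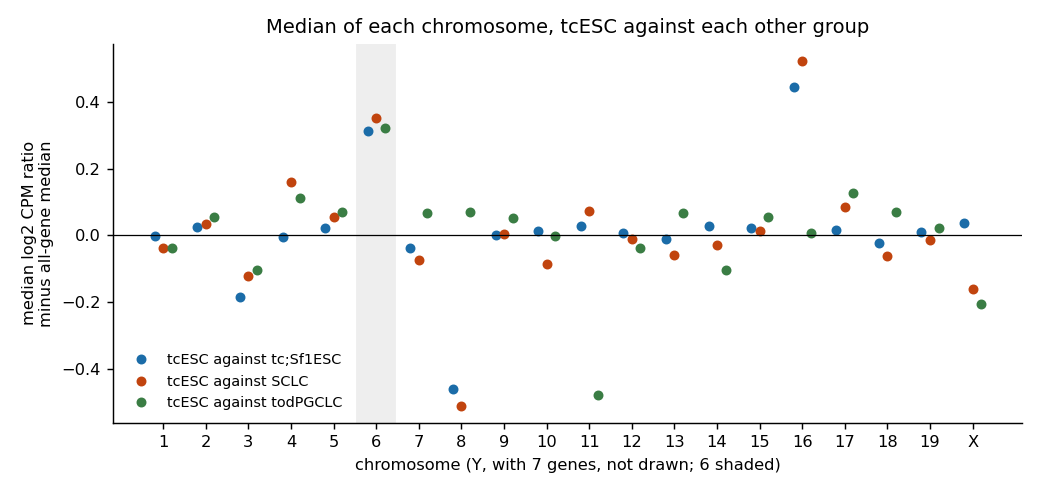
Median log2 ratio of CPM per chromosome, less the all-gene median, for tcESCs against tc;Sf1ESCs (blue), SCLCs (orange) and todPGCLCs (green); each point is 1 chromosome in 1 comparison. The 3 points of chromosome 6 lie together at 0.31, 0.35 and 0.32, while chromosomes 8 and 16 are shifted against tc;Sf1ESCs and SCLCs and chromosome 11 against todPGCLCs.

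Along the chromosome the higher level in tcESCs was spread over nearly all 10 Mb windows. Against tc;Sf1ESCs the median was above 0 in 15 of 15 windows, with an SD of 0.11 between windows, and in 14 of them it was above 0 in all 4 pairs of libraries. The highest window was the one from 70 to 80 Mb (0.42, 46 genes), followed by that from 140 Mb to the end (0.41, 51 genes) and that from 30 to 40 Mb (0.40, 64 genes). The lowest was the one from 40 to 50 Mb (0.0023, 49 genes), whose pairs ran from -0.050 to 0.043. Next lowest were the windows from 50 to 60 Mb (0.16) and from 100 to 110 Mb (0.17).

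Against SCLCs 14 of 15 windows were above 0, and against todPGCLCs 14 of 15, but with a larger spread between windows (SD 0.23 and 0.27). All 4 pairs of libraries were above 0 in 14 windows against SCLCs and in 12 against todPGCLCs. Against SCLCs the highest window was that from 140 Mb to the end (0.69) and the lowest that from 40 to 50 Mb (-0.17). Against todPGCLCs the highest was the window from 70 to 80 Mb (0.60) and the lowest that from 0 to 10 Mb (-0.42, pairs -0.60 to -0.11). The part of the chromosome beyond 75 Mb (462 genes) and the part before it (316 genes) had nearly the same median against tc;Sf1ESCs (0.32 and 0.30), while against SCLCs (0.48 and 0.20) and todPGCLCs (0.46 and 0.17) the distal part was higher. In the window from 60 to 70 Mb, which has only 17 genes, the pairs of tcESC and SCLC libraries ran from 0.0018 to 1.10.

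**Figure D2:**
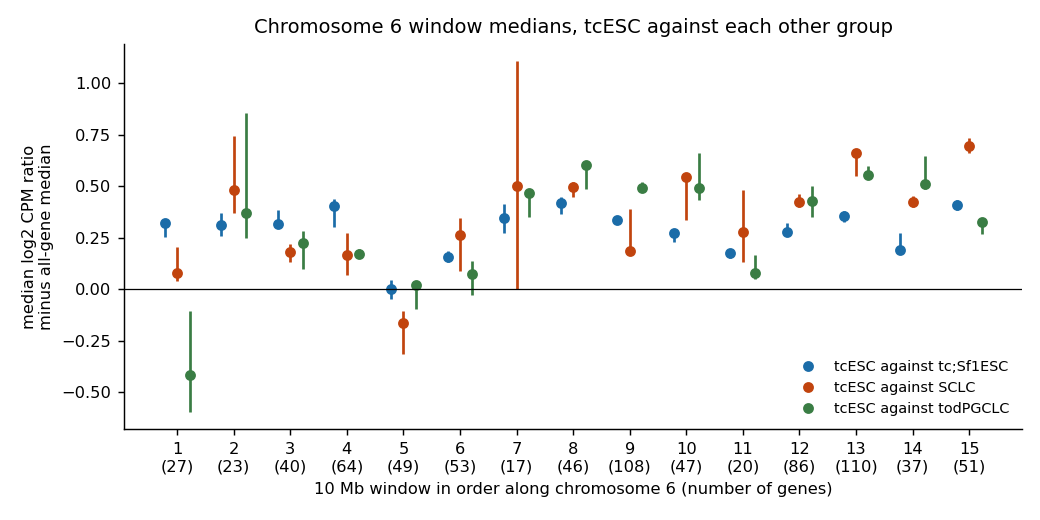
Median log2 ratio of CPM, less the all-gene median, in 15 windows of 10 Mb in order along chromosome 6, with the number of genes in brackets; lines span the 4 pairs of libraries, extended to the median where that lay outside them. Blue points (tc;Sf1ESCs) are all at or above 0, the fifth window is lowest against tc;Sf1ESCs and SCLCs, and the first is lowest against todPGCLCs (-0.42).

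**Figure D3:**
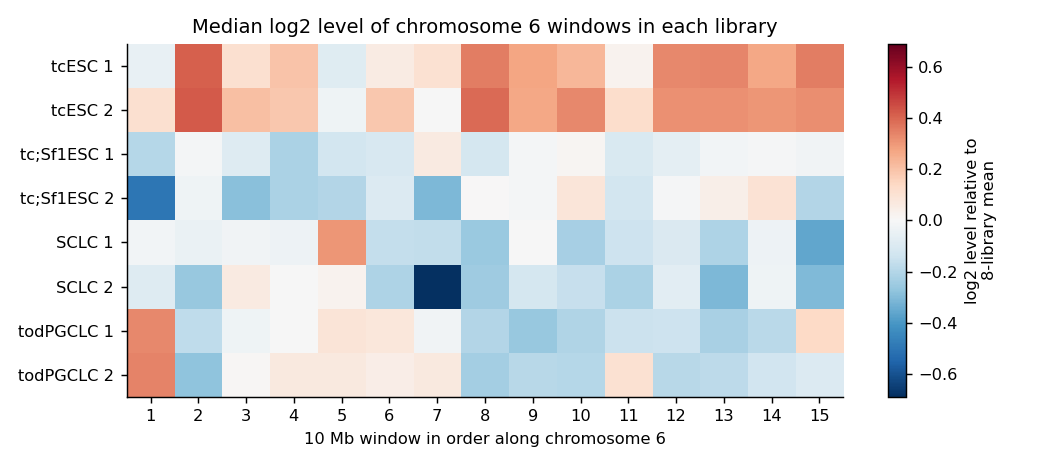
Median log2 level of the genes of each 10 Mb window (columns, in order along chromosome 6) in each of the 8 libraries (rows), relative to the mean of the 8 libraries and centred on each library's all-gene median; red is higher and blue lower. The 2 tcESC rows are red in most windows, and the first window is highest in the todPGCLC rows (0.33 and 0.34).

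The window from 40 to 50 Mb holds a cluster of zinc finger genes, a family of DNA-binding proteins of which many repress transposable elements. The 10 Zfp genes in this window had a median of -0.24 against tc;Sf1ESCs, -1.18 against SCLCs and -0.63 against todPGCLCs. The other 39 genes of the window were also near 0, at 0.0042, 0.075 and 0.029, so the low value of the window was not limited to the Zfp genes. The 8 Zfp genes elsewhere on chromosome 6 were all above 0 against tc;Sf1ESCs (median 0.58), with medians of 0.094 against SCLCs (4 of 8 above 0) and 0.62 against todPGCLCs (7 of 8), and the 359 Zfp genes of other chromosomes had medians of -0.086, 0.15 and 0.33 in the 3 comparisons. A running median over 41 neighbouring genes was above 0 at 99.1% of positions against tc;Sf1ESCs, with its lowest value (-0.021) at 48.6 Mb, at 89.4% against SCLCs and at 96.5% against todPGCLCs.

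By level, length and type of gene, the medians were as follows. Against tc;Sf1ESCs the median was 0.22 for the genes of lowest mean CPM, 0.32 for those of middle and 0.34 for those of highest mean CPM, in 3 classes of equal size over all genes, where the genes of other chromosomes were at -0.019, -0.012 and 0.0025. By exonic length it was 0.35 for the longest, 0.32 for the middle and 0.16 for the shortest class, against 0.029, 0.0037 and -0.059 elsewhere. Protein-coding members had a median of 0.33, lincRNAs 0.21, antisense transcripts 0.18 and processed pseudogenes -0.12, the last close to the -0.098 of the 652 processed pseudogenes of other chromosomes. Against SCLCs the 3 classes of mean CPM were at 0.083, 0.088 and 0.67 on chromosome 6 and at -0.17, -0.14 and 0.18 elsewhere, and against todPGCLCs at 0.093, 0.24 and 0.51 on chromosome 6 and at -0.22, -0.075 and 0.12 elsewhere. The processed pseudogenes of chromosome 6 were at 0.62 against SCLCs, where those of other chromosomes were at 0.30. The differences between these classes were not tested.

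Most members kept near their window against tc;Sf1ESCs, the closest relative of tcESCs. The departure of a gene is its own log2 ratio less the median of its window. It was within 0.5 for 529 of 778 members (68.0%) against tc;Sf1ESCs, for 32.4% against SCLCs and for 46.3% against todPGCLCs, and beyond 2 for 24, 157 and 84 members. Capza2, Tax1bp1 and Rpl32, named after their values were seen, are examples of members near their window, with departures of 0.18, 0.42 and -0.17 against tc;Sf1ESCs, but of 0.71, 0.85 and -0.34 against todPGCLCs. Capza2, a subunit of the actin capping protein, had 327 and 347 CPM in tcESCs, 239 and 238 in tc;Sf1ESCs, 171 and 178 in SCLCs and 173 and 170 in todPGCLCs, with the 2 tcESC libraries above all others. Tax1bp1, an autophagy receptor, had 274 and 279 CPM in tcESCs and between 156 and 186 CPM in the other 6 libraries. Rpl32, a ribosomal protein gene whose tcESC libraries overlapped with those of SCLCs and todPGCLCs but not of tc;Sf1ESCs, had 640 and 721 CPM in tcESCs, 620 and 637 in tc;Sf1ESCs, 671 and 508 in SCLCs and 697 and 682 in todPGCLCs.

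The 2 members that stood farthest above their window in tcESCs against tc;Sf1ESCs were imprinted neighbours. Peg10 (ENSMUSG00000092035, chr6:4747306-4760517), a paternally expressed gene derived from a retrotransposon and needed for the placenta, had 715 and 711 CPM in tcESCs, 15.3 and 17.3 in tc;Sf1ESCs, 1995 and 3276 in SCLCs and 747 and 1091 in todPGCLCs. Only the tc;Sf1ESC libraries were low, and the departure was 5.12. Sgce (ENSMUSG00000004631, chr6:4674350-4747207), the paternally expressed gene for epsilon-sarcoglycan that starts beside Peg10 on the other strand, had 8.26 and 10.1 CPM in tcESCs, 0.463 and 0.434 in tc;Sf1ESCs, 70.3 and 60.9 in SCLCs and 15.5 and 22.1 in todPGCLCs (departure 3.75). It followed the same order of groups as Peg10. Both genes were named on their ratio to the low tc;Sf1ESC libraries, which also enter the next test. Its p-values are therefore not independent of that choice. Peg10 and Sgce rose in SCLCs over tc;Sf1ESCs, from which SCLCs were made, by 7.38 ± 0.31 (SE) and 7.23 ± 0.26 on the log2 scale (adjusted p = 1.2e-07 and 6.4e-08, quasi-likelihood F test of edgeR, adjusted by Benjamini and Hochberg's method across the 16707 genes, as for every adjusted p below).

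**Figure D4:**
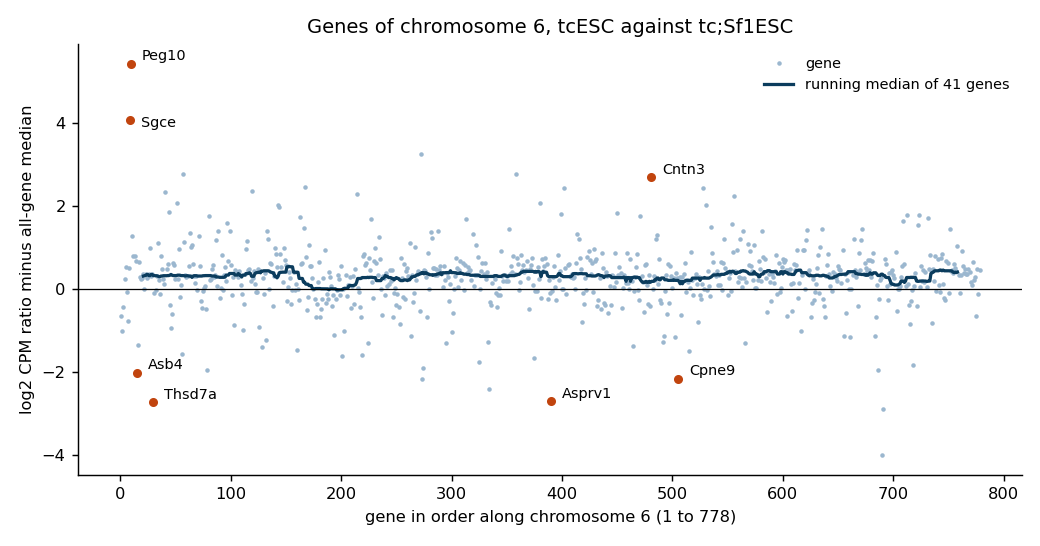
Log2 ratio of CPM for tcESCs against tc;Sf1ESCs, less the all-gene median, for the members in order along chromosome 6, with the running median of 41 genes and the named genes of this comparison that are reported here in orange. The line stays above 0 nearly throughout, and Peg10 (5.43) and Sgce (4.07) are the farthest points above it.

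Cntn3, a neural cell adhesion protein, was also far above its window, with 1.81 and 1.73 CPM in tcESCs, 0.193 and 0.181 in tc;Sf1ESCs and 0.872 to 2.30 in the other libraries. The tc;Sf1ESC libraries alone were low, as for Peg10 and Sgce.

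On the lower side Thsd7a, a membrane protein with thrombospondin domains, had 1 count in each tcESC library, 0.733 and 0.867 CPM in tc;Sf1ESCs, 5.51 and 4.57 in SCLCs and 1.74 and 2.11 in todPGCLCs, so that tcESCs were lowest. Asprv1, a protease of the skin barrier, had 0.590 and 0.424 CPM in tcESCs against 3.59 and 4.08 in tc;Sf1ESCs and 0.640 to 1.34 in the 4 other libraries. Cpne9, a calcium-dependent phospholipid-binding protein, had 1.30 and 0.913 CPM in tcESCs, 5.82 and 4.77 in tc;Sf1ESCs and 0.722 to 1.96 elsewhere. In both, tc;Sf1ESCs alone were high. Asb4, a maternally expressed imprinted gene of the Peg10 domain, had 0.197 and 0.424 CPM in tcESCs, 1.89 and 1.23 in tc;Sf1ESCs, 0.340 and 0.344 in SCLCs and 1.56 and 3.69 in todPGCLCs. Below a mean of 1 CPM, and chosen after its values were seen, the pseudogene Gm15854 departed by -4.36, with 3.28 and 3.58 CPM in tc;Sf1ESCs and at most 0.163 CPM in the other 6 libraries. The nearby Klra4, a natural killer cell lectin receptor, departed by -3.09, with 2.08 and 1.52 CPM in tc;Sf1ESCs and 0 counts in the 4 sorted libraries and at most 0.196 CPM in tcESCs. Both were members only through the tc;Sf1ESC libraries, so the direction of these departures followed from the limit on counts. Both also have close paralogs in this cluster, so reads could be split between copies and their values are uncertain.

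The departures against SCLCs reached further than those against tc;Sf1ESCs. Where a group held only a few counts, the size of a departure depends on the pseudocount, so counts are given. Usp18 (ENSMUSG00000030107, chr6:121245906-121270917), the protease that removes ISG15 from proteins and is induced by interferon, had 0 and 2 counts in tcESCs and 1 in each tc;Sf1ESC library, against 180 and 165 CPM in SCLCs and 32.5 and 41.8 CPM in todPGCLCs. The 4 differentiated libraries were thus far above the 4 ESC libraries. Aqp1, a water channel, was found almost only in SCLCs, with 19.1 and 18.3 CPM there and at most 3 counts in each other library. Col1a2, the alpha-2 chain of type I collagen, had 0.394 and 0.326 CPM in tcESCs, 0.810 and 0.542 in tc;Sf1ESCs, 66.2 and 24.0 in SCLCs and 24.98 and 23.2 in todPGCLCs. Tfec, a factor related to Mitf, had 5.09 and 7.32 CPM in SCLCs, 0 counts in both tc;Sf1ESC libraries and at most 0.254 CPM in the others. Aqp1 and Tfec passed the limit on counts only through the SCLC libraries, so their direction followed from it. The endoderm and trophectoderm sums given above were highest in the SCLC libraries as well, and their part in these differences was not tested.

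Higher in tcESCs than in SCLCs, and far above the window, were Trh, Evx1 and Gpnmb, among others. Trh, the precursor of thyrotropin-releasing hormone, had 456 and 507 CPM in tcESCs, 653 and 663 in tc;Sf1ESCs, 225 and 718 in todPGCLCs and only 3.62 and 2.92 in SCLCs. The 2 todPGCLC libraries differed widely from each other and SCLCs alone were low. Evx1, a homeobox gene of the primitive streak at the end of the Hoxa cluster, had 4.80 and 4.27 CPM in tcESCs, 2.55 and 2.53 in tc;Sf1ESCs, 0 and 3 counts in SCLCs and 0.291 and 0.527 CPM in todPGCLCs. Gpnmb, a membrane glycoprotein of pigment cells and macrophages, had 18.7 and 19.98 CPM in tcESCs, 18.2 and 20.7 in tc;Sf1ESCs, 0.377 and 1.17 in SCLCs and 0.472 and 0.791 in todPGCLCs. Its ESC groups overlapped, and both were far above the sorted cells.

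Against todPGCLCs the highest departures included those of Gpnmb, Reg2 and Gm26640, and the lowest were those of Usp18, Aass, Herc6 and Col1a2. Reg2, a secreted lectin of the pancreas, had 4.64 and 5.05 CPM in tcESCs, 1.89 and 1.84 in tc;Sf1ESCs, 0.679 and 0.653 in SCLCs and 0.145 and 0.113 in todPGCLCs. The lincRNA Gm26640 had 7.40 and 7.20 CPM in tcESCs, 2.43 and 1.95 in tc;Sf1ESCs and 0.137 to 0.399 in the 4 other libraries. For both genes tcESCs were highest and tc;Sf1ESCs second. Aass, the first enzyme of lysine breakdown, had 2 and 7 counts in tcESCs, 0.887 and 0.397 CPM in tc;Sf1ESCs, 6.49 and 5.67 in SCLCs and 32.4 and 30.0 in todPGCLCs.

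The 3 comparisons among tc;Sf1ESCs, SCLCs and todPGCLCs were not those that the rule used, and were tested. Each of their ratios is, apart from centring, a difference between tcESC ratios from the same libraries. These comparisons are therefore not independent of the choice of members. A p-value of a gene named in a tcESC comparison reuses libraries by which the gene was named. A gene was called at a fold change over 2 and an adjusted p under 0.05. In SCLCs against tc;Sf1ESCs 191 members rose (24.6%, against 24.2% of all genes) and 153 fell (19.7%, against 18.0%). In todPGCLCs against tc;Sf1ESCs 152 rose (19.5%, against 19.4%) and 116 fell (14.9%, against 13.3%). In todPGCLCs against SCLCs 145 were higher (18.6%, against 18.5%) and 164 lower (21.1%, against 19.5%). The shares of members called were near those of all genes in each of the 6 counts. Of the 778 members 97 would have been under the limit on mean counts with the counts of 1 group set to 0. The higher group of a comparison was one that the called member needed to pass for 34 of the 191, 18 of the 153, 28 of the 152, 12 of the 116, 22 of the 145 and 31 of the 164 calls, and no p-value is given below for such a call. In the comparisons of tcESCs the rule used these ratios, so the counts follow from the choice of the chromosome and nothing is read from them. The same limits called 77 members higher and 33 lower than in tc;Sf1ESCs (9.90% and 4.24%, against 5.85% and 6.13% of all genes), 214 higher and 161 lower than in SCLCs (27.5% and 20.7%, against 18.2% and 24.4%), and 146 higher and 114 lower than in todPGCLCs (18.8% and 14.7%, against 11.2% and 18.1%). With 1 library left out the 77 and 33 calls became 61 and 17 (tcESC replicate 1), 58 and 20 (tcESC replicate 2), 55 and 18 (tc;Sf1ESC replicate 1) or 53 and 21 (tc;Sf1ESC replicate 2).

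In the window from 0 to 10 Mb 12 of 27 members rose in todPGCLCs over tc;Sf1ESCs and 0 fell, and its median log2 ratio was 0.75 (pairs 0.71 to 1.04). Over all genes tested 19.4% rose and 13.3% fell in this comparison. The 4 windows given here were chosen from the 15 after their counts were seen. The 12 include Peg10, Sgce, Col1a2, Samd9l and Ppp1r9a. In SCLCs over tc;Sf1ESCs 8 of the 27 rose and 2 fell (24.2% and 18.0% of all genes), and in todPGCLCs against SCLCs 8 were higher and 7 lower (18.5% and 19.5% of all genes). In the window from 70 to 80 Mb 4 of 46 members were higher and 15 lower in todPGCLCs than in SCLCs. In the window from 140 Mb to the end, 4 of 51 members fell and 13 rose in todPGCLCs over tc;Sf1ESCs, and in that from 80 to 90 Mb 18 of 108 fell and 10 rose.

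By the rule for named genes, Usp18, Aqp1 and Peg10 stood out upward in SCLCs over tc;Sf1ESCs, and Trh, Fam19a4 and Npy downward. Usp18 rose with adjusted p = 1.1e-08, and Aqp1 passed the limit on counts only through the SCLC libraries. Since the tc;Sf1ESC libraries held at most 1 count of each gene, no fold is given. Trh fell by 7.61 ± 0.58 (SE) on the log2 scale (adjusted p = 4.0e-06). Fam19a4, a secreted chemokine-like protein, had 9.10 and 8.96 CPM in tc;Sf1ESCs against 2 and 1 counts in SCLCs (adjusted p = 3.0e-07), and Npy, neuropeptide Y, had 5.40 and 4.08 CPM against 0 and 2 counts (adjusted p = 4.5e-06). Both were intermediate in todPGCLCs, at 1.02 and 1.36 CPM for Fam19a4 and at 0.327 and 0.452 CPM for Npy.

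In todPGCLCs over tc;Sf1ESCs the 3 named increases were Usp18, Stra8 and Halr1. Stra8, whose promoter is printed above, had 2.20 and 2.12 CPM in tcESCs, 0.424 and 0.253 in tc;Sf1ESCs, 62.0 and 22.5 in SCLCs and 71.4 and 80.7 in todPGCLCs. It rose by 7.71 ± 0.61 in todPGCLCs (adjusted p = 9.9e-06) and by 6.99 ± 0.62 in SCLCs (adjusted p = 9.8e-06, with 6.10 to 7.56 over the fits without 1 library), and the difference between those 2 groups did not pass (0.72 ± 0.36, adjusted p = 0.10). Halr1, a lincRNA beside the Hoxa cluster, had 1.14 and 0.945 CPM in tcESCs, 0.154 and 0.108 in tc;Sf1ESCs, 2.79 and 2.68 in SCLCs and 20.01 and 19.7 in todPGCLCs (adjusted p = 2.4e-07 for todPGCLCs over tc;Sf1ESCs, whose 4 and 3 counts lie near the floor, so that no fold is given). Its todPGCLC libraries were the highest by far. Gpnmb fell by 5.03 ± 0.36 (adjusted p = 5.8e-06), Npy by 3.68 ± 0.36 (adjusted p = 3.6e-05), and Tlx2, a homeobox factor of the mesoderm and enteric neurons, dropped from 3.20 and 2.71 CPM to 4 and 0 counts, and needed the tc;Sf1ESC libraries to pass the limit.

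Between the 2 sorted groups Trh, 0610040F04Rik and Prmt8 were higher in todPGCLCs, and Aqp1, Eno2 and Gkn2 lower. Trh was 7.04 ± 0.57 higher (adjusted p = 7.8e-06), and 7.65 without todPGCLC replicate 1 or 5.98 without replicate 2. The antisense transcript 0610040F04Rik had 4.79 and 2.94 CPM in todPGCLCs and at most 0.270 CPM elsewhere, so that the limit admitted it only through the todPGCLC libraries. Since it overlaps the start of Bhlhe40 and the strand setting of the counting is not given in the sources used here, its reads may belong to either gene. Prmt8, a membrane-bound arginine methyltransferase best known from brain, had 7.44 and 3.95 CPM in todPGCLCs and at most 0.684 CPM elsewhere, and was likewise a member only through todPGCLCs. Eno2, the neuronal form of enolase, had 239 and 129 CPM in SCLCs and 4.03 to 9.54 CPM in the 6 other libraries, and was 5.48 ± 0.30 lower in todPGCLCs (log2 fold change -5.48, adjusted p = 9.5e-07). Gkn2, a secreted protein of the stomach lining, had 0 counts in all 4 ESC libraries and 0 and 1 counts in todPGCLCs, so that it passed the limit on counts through the SCLC libraries alone. These had 6.83 and 2.10 CPM and differed widely, so no fold is given.

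The role lists below were chosen with results known, and the median of all genes tested is 0 by centring. Each list's counts stand beside the shares of all genes tested that rose and fell against tc;Sf1ESCs, which were 24.2% and 18.0% in SCLCs and 19.4% and 13.3% in todPGCLCs, and its tcESC medians beside the chromosome's 0.31, 0.35 and 0.32. Of the 12 listed genes of the pluripotency cluster around Nanog 10 were members, and in SCLCs against tc;Sf1ESCs 5 of these fell and 0 rose, while 2 rose and 1 fell in todPGCLCs. Their tcESC medians were 0.30, 1.08 and 0.093 against tc;Sf1ESCs, SCLCs and todPGCLCs, the order used for every list, with 7, 7 and 6 of the 10 above 0. Nanog, a core factor of pluripotency, had 940 and 979 CPM in tcESCs, 701 and 689 in tc;Sf1ESCs, 69.4 and 21.3 in SCLCs and 648 and 645 in todPGCLCs, so that SCLCs alone were low (fall of 3.90 ± 0.43 in SCLCs, log2 fold change -3.90, adjusted p = 4.0e-05). Gdf3, a TGF-beta ligand, fell likewise (log2 fold change -3.67 ± 0.37, adjusted p = 2.3e-05), as did Phc1, a Polycomb subunit (-1.70 ± 0.21, adjusted p = 8.9e-05), and Apobec1 and Clec4a1, the last of which needed the tc;Sf1ESC libraries to pass the limit on counts. With 1 library left out the values ranged from -4.97 to -3.27 for Nanog and from -4.71 to -3.03 for Gdf3. Without SCLC replicate 2 that of Apobec1, an RNA-editing enzyme, was -0.73 in place of -1.03 and was no longer called. Dppa3, a maternal factor of germ cells that protects DNA methylation, had 24.7 and 25.9 CPM in tcESCs, 36.1 and 36.4 in tc;Sf1ESCs, 49.1 and 15.1 in SCLCs and 154 and 181 in todPGCLCs, where it rose by 2.12 ± 0.40 (adjusted p = 0.0015). The SCLC libraries overlapped with the ESC libraries for this gene.

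Of the Hoxa cluster, which patterns the body axis, 5 of 11 Hoxa genes were members, and with the flanking genes 10 of 16 listed. In SCLCs over tc;Sf1ESCs 5 of the 10 rose and 1 fell, and in todPGCLCs 1 rose and 3 fell. Hoxa3, Hoxa5, Hoxa7 and Hoxa10 were among those that rose, and the 1 that fell was Evx1. Hoxa3, Hoxa5 and Hoxa10 were members only through the SCLC libraries, so their direction followed from the limit on counts. Hoxa10 had 0.118 and 0.163 CPM in tcESCs, 0.656 and 0.578 in tc;Sf1ESCs, 4.83 and 4.16 in SCLCs and 0.0363 and 0.113 in todPGCLCs, with SCLCs above all others. The tcESC medians of the 10 were -0.032, -1.21 and 0.32.

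In the imprinted domains 12 of 18 listed genes were members. Their tcESC medians were 0.71, 0.0072 and -0.55, with 9, 6 and 2 of the 12 above 0, beside 72.5%, 59.3% and 65.4% of all members. In SCLCs over tc;Sf1ESCs 4 rose and 4 fell, and in todPGCLCs 7 rose and 1 fell. Mest, a paternally expressed gene of the hydrolase family, had 154 and 155 CPM in tcESCs, 59.6 and 56.1 in tc;Sf1ESCs, 38.5 and 16.6 in SCLCs and 63.8 and 84.4 in todPGCLCs. It was thus highest in tcESCs, unlike Peg10, and fell in SCLCs (log2 fold change -1.03 ± 0.31, adjusted p = 0.014). That call was lost without SCLC replicate 2 (-0.53), without tc;Sf1ESC replicate 1 (-0.9996) and with only the 4 libraries compared (-1.04), and the value was -1.74 without SCLC replicate 1. Ppp1r9a, the neurabin gene of the Peg10 domain, had 28.3 and 24.5 CPM in tcESCs, 9.99 and 11.6 in tc;Sf1ESCs, 27.7 and 20.1 in SCLCs and 75.4 and 61.6 in todPGCLCs, where it rose by 2.58 ± 0.18 (adjusted p = 4.9e-06).

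Among genes of the region of Met, Wnt2 and the caveolins, 7 of 12 were members, with tcESC medians of 0.60, 0.94 and 0.82. Met, the receptor for hepatocyte growth factor, had 13.7 and 12.9 CPM in tcESCs, 2.55 and 2.53 in tc;Sf1ESCs, 3.62 and 5.36 in SCLCs and 13.4 and 13.6 in todPGCLCs. The tc;Sf1ESC libraries were lowest, and Met rose in todPGCLCs over them by 2.32 ± 0.20 (adjusted p = 1.7e-05) while the rise of 0.87 ± 0.21 in SCLCs was under the 2-fold limit. In the tested comparisons with tc;Sf1ESCs 2 of the 7 rose and 2 fell in SCLCs, and 3 rose and 1 fell in todPGCLCs.

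In RAS-MAPK and growth signalling 16 of 20 listed genes were members, with tcESC medians of 0.42, -0.019 and -0.28 and 13, 8 and 7 of the 16 above 0. In SCLCs over tc;Sf1ESCs 8 rose and 2 fell, and in todPGCLCs 8 rose and 3 fell. Ccnd2, a D-type cyclin of the G1 phase, had 2.95 to 4.13 CPM in the 4 ESC libraries, 81.1 and 78.6 in SCLCs and 19.9 and 19.99 in todPGCLCs (rises of 4.34 ± 0.10 and 2.20 ± 0.10, adjusted p = 9.5e-09 and 5.7e-07). Mitf, the factor of pigment cells and of lysosomal genes, had 93.7 to 117 CPM in the ESC libraries and 11.3 to 23.5 CPM in the sorted ones, and fell in both (adjusted p = 2.2e-05 and 1.5e-05).

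Of 25 listed transcription and chromatin factors 24 were members, with tcESC medians of 0.42, 0.52 and 0.24. In SCLCs over tc;Sf1ESCs 9 rose and 2 fell, and in todPGCLCs 5 rose and 1 fell. Foxp1, a forkhead repressor, had 11.4 and 13.3 CPM in tcESCs, 3.59 and 3.47 in tc;Sf1ESCs, 11.5 and 10.4 in SCLCs and 35.8 and 32.7 in todPGCLCs, with rises of 1.67 ± 0.14 and 3.19 ± 0.14 (adjusted p = 7.3e-06 and 5.4e-07). Ezh2, the methyltransferase of Polycomb repressive complex 2, had 310 and 316 CPM in tcESCs, 214 and 210 in tc;Sf1ESCs, 151 and 132 in SCLCs and 195 and 211 in todPGCLCs, and passed the 2-fold limit in neither tested comparison with tc;Sf1ESCs. Gata2, a factor of blood and trophoblast, had 20.3 and 24.8 CPM in tcESCs, 9.57 and 8.17 in tc;Sf1ESCs, 16.3 and 41.6 in SCLCs and 7.23 and 7.76 in todPGCLCs. Its rise of 1.76 ± 0.37 in SCLCs (adjusted p = 0.0022) went with a wide difference between the SCLC libraries and with their trophectoderm sums, whose part was not tested, and it was 0.93 and no longer called without SCLC replicate 2.

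Of the genes for cell cycle and DNA repair 16 of 17 were members, with tcESC medians of 0.33, 0.58 and 0.35. Of the 16, 3 rose and 1 fell in SCLCs over tc;Sf1ESCs, and 3 rose and 1 fell in todPGCLCs. Mcm2, a subunit of the replicative helicase, was the 1 that fell in SCLCs, from 522 and 528 CPM to 217 and 175 (log2 fold change -1.37 ± 0.09, adjusted p = 1.9e-06). Cdkn1b, an inhibitor of the G1 to S transition, was the 1 that fell in todPGCLCs, with 52.6 and 51.0 CPM in tc;Sf1ESCs and 19.1 and 17.4 in todPGCLCs (-1.59 ± 0.12, adjusted p = 8.6e-06). In genes of glucose and energy metabolism, 18 of 19 listed were members, with tcESC medians of 0.20, 0.45 and 0.23. In the tested comparisons 2 rose and 3 fell in SCLCs, and 3 rose and 2 fell in todPGCLCs. Ldhb, a subunit of lactate dehydrogenase, had 82.5 and 90.0 CPM in tcESCs, 153 and 151 in tc;Sf1ESCs, 59.1 and 25.2 in SCLCs and 396 and 369 in todPGCLCs, where it rose by 1.24 ± 0.28 (adjusted p = 0.0043) while it fell in SCLCs (-1.81 ± 0.30, adjusted p = 0.00050, with -2.53 to -1.31 over the fits without 1 library). The glycolytic gene Gapdh had 945 and 1014 CPM in tcESCs, 866 and 847 in tc;Sf1ESCs, 856 and 662 in SCLCs and 1707 and 1655 in todPGCLCs, which were highest.

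Of 20 listed genes for extracellular matrix and surface proteins 14 were members, with tcESC medians of 0.42, 0.48 and -0.92 and 10, 8 and 5 of the 14 above 0, and 6 rose and 4 fell in SCLCs and 8 rose and 2 fell in todPGCLCs. Podxl, a sialomucin of podocytes and of epithelial surfaces, had 20.1 and 20.8 CPM in tcESCs, 35.3 and 38.5 in tc;Sf1ESCs, 756 and 824 in SCLCs and 129 and 172 in todPGCLCs, with a rise of 4.46 ± 0.14 in SCLCs (adjusted p = 3.4e-08). Emp1, an epithelial membrane protein, was highest in tcESCs at 66.2 and 67.1 CPM, with 18.8 and 19.5 in tc;Sf1ESCs and 3.82 to 6.11 in the sorted libraries. Of 15 genes for ribosome and translation 14 were members, with tcESC medians of 0.38, 0.91 and 0.38 and, against tc;Sf1ESCs, a range from -0.13 to 0.62, and in the tested comparisons 3 rose and 1 fell in SCLCs and 1 rose in todPGCLCs. Nop2, a methyltransferase of ribosomal RNA, fell in SCLCs (-1.80 ± 0.06, adjusted p = 5.2e-08). Of 17 genes listed under estrogen sensing, mesoderm and gonad 10 were members (Sox5, Gata2, Podxl, Akr1b8, Fkbp4, Cd9, Vamp5, Ntf3, Lrp6 and Pianp), none of them an estrogen receptor, with tcESC medians of 0.41, -0.37 and 0.45, and 5 rose and 2 fell in SCLCs and 3 rose and 3 fell in todPGCLCs.

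Usp18, Herc6, Samd9l and Parp12, which lie in 4 windows of the chromosome and are known as interferon-induced genes, were grouped after their values were seen. Herc6, the mouse ligase that attaches ISG15, had 0.472 and 0.424 CPM in tcESCs, 0.887 and 0.650 in tc;Sf1ESCs, 29.5 and 26.5 in SCLCs and 29.5 and 25.04 in todPGCLCs, with rises of 5.23 ± 0.19 and 5.06 ± 0.19 over tc;Sf1ESCs (adjusted p = 6.4e-08 and 2.8e-07). Samd9l, an antiviral factor, had 2.22 to 3.43 CPM in the ESC libraries, 63.4 and 66.9 in SCLCs and 6.94 and 7.76 in todPGCLCs, with rises of 4.35 ± 0.13 and 1.06 ± 0.14 (adjusted p = 3.1e-08 and 0.00016). The second of these was not called without todPGCLC replicate 2 (0.99) or tc;Sf1ESC replicate 1 (0.98). Parp12, an ADP-ribosyltransferase, had 33.5 and 37.2 CPM in tcESCs, 8.02 and 9.21 in tc;Sf1ESCs, 123 and 114 in SCLCs and 133 and 140 in todPGCLCs, with rises of 3.82 ± 0.10 and 3.89 ± 0.10 (adjusted p = 1.4e-08 and 5.6e-08). The sorted libraries were above the ESC libraries for all 4 genes, but the 2 ESC groups differed in order, with tc;Sf1ESCs lowest for Parp12. Zc3hav1, another antiviral gene of the chromosome named after its values were seen, did not pass the 2-fold limit, with 184 to 192 CPM in the ESC libraries, 309 and 322 in SCLCs and 199 and 172 in todPGCLCs.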

How the data were processed

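The libraries were polyA-selected, strand-specific and read as 50 bp pairs. Per the labels and methods, the authors trimmed reads with Trim Galore, aligned them to GRCm38 with STAR 2.4.0 and deposited raw HTSeq counts per gene (Picard and DESeq2 are also listed). Rows that name no gene (20.5% to 27.5% not uniquely aligned, 6.45% to 8.32% without a feature, 2.38% to 5.00% not aligned and about 3% ambiguous, of all reads in a file) were left out. GENCODE M21 placed 45143 of 46078 gene IDs. Counts were scaled to CPM, a pseudocount of 0.1 CPM was added, and log2 ratios were centred on the median of all genes with a mean count above 10. edgeR 4.0.16 (R 4.3.3, TMM, quasi-likelihood, all 8 libraries, 16707 genes) tested 2 against 2 libraries, a size at which a permutation of libraries cannot reach 0.05. The script was tested on simulated data. Alternatives included DESeq2 1.42.0, other filters, scalings and left-out libraries. Named genes were the 4 largest departures each way per tcESC comparison without overlap between libraries, the 3 largest each way among called genes in the others (mean of at least 1 CPM), and list members. The members and lists were chosen with earlier results of these data known. Some genes that the rule names are not reported here.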

Additional observations from a re-analysis of the deposited data

How the results depend on the processing

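The direction of the chromosome 6 median of tcESCs against each other group was kept under every setting tried except that, with every gene of at least 1 count, it was 0 against SCLCs. Against tc;Sf1ESCs, SCLCs and todPGCLCs it was 0.25, 0.25 and 0.26 with a pseudocount of 1 CPM, 0.32, 0.32 and 0.34 for mean counts above 100, and 0.19, 0 and 0.047 with every gene of at least 1 count. Protein-coding genes gave 0.33 and 0.27 against the first 2, uncentred TMM fold changes 0.31 against SCLCs and 0.29 against todPGCLCs, and centring on the autosomes other than 6, 8, 11 and 16 gave 0.29 against todPGCLCs. With 1 library left out the 3 medians ranged from 0.30 to 0.31, from 0.32 to 0.36 and from 0.32 to 0.34. The medians between the other groups changed sign with the setting. For SCLCs against tc;Sf1ESCs they were -0.0053 above 100 counts, 0 with every gene, 0.051 by TMM, 0.091 for protein-coding genes and -0.00035 to 0.038 without 1 library. For todPGCLCs against tc;Sf1ESCs they were -0.035 with a pseudocount of 1 CPM, -0.037 above 100 counts, 0.014 with every gene, 0.013 centred on the other autosomes, -0.012 by TMM, 0.0020 for protein-coding genes and -0.046 to -0.026 without 1 library. For todPGCLCs against SCLCs they were -0.012 above 100 counts, -0.013 with every gene, -0.012 centred on the other autosomes, -0.072 for protein-coding genes and -0.043 to 0.020 without 1 library. In windows of 5 Mb 24 of 30 medians were above 0 against SCLCs and 24 of 30 against todPGCLCs. The counts of members called in both directions together stayed within 1.5 times under every setting except without tc;Sf1ESC replicate 1, where 110 members called between tcESCs and tc;Sf1ESCs became 73. The other settings gave at most 132. The ranges without 1 library were 73 to 120 for it and 353 to 385, 236 to 265, 324 to 347, 246 to 272 and 280 to 316 for the other 5 comparisons. A group left with 1 library is assumed to vary like the others. Same-numbered libraries did not deviate together (correlations -0.026 to 0.062 over genes), so they share only a number, and with the replicate block 110 members were called in tcESCs against tc;Sf1ESCs. Of 2409 refits of 243 calls of named genes, list members, Samd9l and Parp12, 2350 kept the call, 59 lost it and 0 reversed, and 33 calls were lost at least once. Those of Mest, Gata2 and Apobec1 in SCLCs and of Samd9l in todPGCLCs over tc;Sf1ESCs are given above. Others were those of Col1a2, Cntn3, Evx1 and Gapdh between todPGCLCs and SCLCs, and of Tfec, Eno2 and Casd1 between todPGCLCs and tc;Sf1ESCs. That of Col1a2 was lost in 6 fits, DESeq2 and the replicate block included, and its log2 difference was -0.14 without SCLC replicate 1 in place of -1.03. The block also lost that of Tfec and no other of the 243. The cause of these changes was not tested. With 2 libraries a group, and about 0.1 CPM as the floor, differences in genes near the floor could not be sized.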
